A study of Mus musculus with 192 samples.

Results

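MHC class II genes and Cd74 were followed across single blood progenitors of the mouse. The 7 genes were taken by symbol from the 20764 genes of the deposited counts, whatever their values. They are the alpha and beta chains of the I-A and I-E molecules (H2-Aa, H2-Ab1 and H2-Eb1), the invariant chain (Cd74), the DM peptide exchanger (H2-DMa and H2-DMb1) and the coactivator Ciita. All 7 were detected, and 6 had enough counts to be compared between classes of cells.

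Class II molecules carry peptides from ingested protein to the surface of antigen-presenting cells, where helper T cells read them. The alpha and beta chains assemble around the invariant chain, which fills the groove and guides the complex to endosomes. There cathepsins trim it, and DM exchanges the remaining fragment for peptide, a step that DO restrains. Transcription needs CIITA, which binds no DNA itself and docks on the factors RFX, CREB and NF-Y at the X and Y boxes of class II promoters. Dendritic cells, B cells and macrophages are the usual sources in marrow, and low class II is also known on blood stem and progenitor cells.

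The cells came from C57BL/6 mice aged 8 to 16 weeks, and every cell is labelled with that strain alone and no treatment, although the breeding protocol also names other mice. Marrow was enriched for cKit on beads and single LSK progenitors (lineage-negative, Sca-1-positive, cKit-positive) were sorted. The sort used antibodies to Sca-1, the IL-7 receptor (CD127), CD16/32, CD135, CD150 and CD48. The signals of each cell used here are CD135, Sca-1, CD150, CD127, cKit, CD16/32, CD11b and forward and side scatter. CD48 is not among them. The counts are of unique molecular identifiers (UMIs), each standing for 1 captured molecule, in 192 cells processed as 2 library pools of 96, which use the same 96 primers. No animal is named, so all cells are 1 biological sample. Every 95% interval below covers counting error only, and no p-value is given. Cells carry a number that serves only as a name.

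The stretch before the start of a class II gene shows what the members share in sequence. RefSeq promoter windows on GRCm38.p6, 250 bases before to 50 after a start, were at hand for 4 of the 7 genes, as 5 windows. The lines here run 5′ to 3′ on the gene's strand. H2-Aa (chr17:34287824-34287963, minus) and H2-Eb1 (chr17:34305727-34305866, plus) are the 140 bases just before the start, and H2-DMb1 (chr17:34153091-34153116, plus) is the 26 bases around its X box, which lie before the RefSeq start but inside the first exon of the gene in GENCODE. Capitals mark the Y box core GATTGG, or CCAATC when it is read on the other strand, and the X box core, a run of 10 bases.
H2-Aa: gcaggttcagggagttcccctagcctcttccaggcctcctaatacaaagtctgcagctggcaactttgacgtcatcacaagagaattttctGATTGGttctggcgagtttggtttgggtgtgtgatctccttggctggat
H2-Eb1: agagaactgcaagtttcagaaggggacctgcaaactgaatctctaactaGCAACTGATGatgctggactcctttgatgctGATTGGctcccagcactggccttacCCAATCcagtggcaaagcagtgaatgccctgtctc
H2-DMb1: tacctaGTAACTGATGatgctaggct
GATTGG was found on either strand in 4 of the 5 windows, against 16.1% of all 32851 windows in the table. Its first base lay 49 bases before the start of H2-Aa and 60 bases before that of H2-Eb1. The X box letters were found in H2-Eb1, starting 91 bases before the start, and in H2-DMb1, starting 94 bases before the RefSeq start of that window, against 2.97% of all windows. Of all windows, 0.533% held both. Of the 2 windows of H2-DMa, 1 held GATTGG and neither held the X box letters. H2-Aa had no match to the X box letters. These matches describe letters only.

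Depth per cell, over the 191 cells that passed the filter, ranged from 3927 to 49372 gene UMIs around a median of 17715 (17866 in pool 1, 17404 in pool 2). Kit was detected in 98.4% of them, Cd34 in 95.3% and Ly6a, which encodes Sca-1, in 37.7%. The cell left out, in pool 2, had 708 UMIs and 1 UMI of H2-Aa. For each antibody signal, the cells of each pool were ranked and divided into terciles (lower, middle and upper) of 32 cells. CD135 (the receptor encoded by Flt3) is the signal that marks progenitors turning from stem cells towards lymphoid and dendritic fates, and Sca-1 is high on stem cells. Flt3 stood at 538 UMIs per 1000000 gene UMIs (CPM) in the upper tercile and 97.1 CPM in the lower. Ly6a stood at 99.8 CPM in the upper Sca-1 tercile and 10.8 CPM in the lower.

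Most of the members are neighbours in the genome. In GRCm38, H2-DMa (chr17:34119541-34139101, plus strand), H2-DMb1 (chr17:34153072-34160230, plus), H2-Ab1 (chr17:34257689-34269419, plus), H2-Aa (chr17:34282744-34287823, minus) and H2-Eb1 (chr17:34305867-34316674, plus) lie side by side in the class II region. Cd74 is on chromosome 18 (60803848 to 60812652, plus) and Ciita on chromosome 16 (10480059 to 10528418, plus). H2-DMa overlaps Brd2 on the other strand (554 UMIs) and Ciita overlaps Dexi (115 UMIs). The strand rule of the counting is not given in the sources used here, so reads of these pairs may not be fully separate. H2-DMb1 has a near-identical neighbour, H2-DMb2, which held 14 UMIs, and the split of reads between them is uncertain.

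How the class II UMIs were spread over the cells was the first question. Most of the RNA of Cd74, H2-Aa, H2-Ab1 and H2-Eb1 was either in 1 cell or in a scatter of 1 or 2 UMIs over many others, whereas H2-DMa was spread evenly. The 7 genes summed to 1244 UMIs in the 191 cells. Cell 177, in pool 2, held 425 of them, or 34.2% (exact Clopper-Pearson 95% interval 31.5 to 36.9). It was the single cell above a mark of 5% of the summed UMIs. The next cell held 34 UMIs, or 2.73%. The choice of cell 177 rests on these counts, so its class II values are a description.

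Cd74, the invariant chain, was the most concentrated. It had 273 UMIs in 39 cells, of which 56.8% (Clopper-Pearson 50.7 to 62.7) were in cell 177, 23 in cell 125 and at most 8 in any other cell. The median cell had none. Of H2-Eb1, the I-E beta chain, 78 of 161 UMIs (48.4%) were in cell 177, and no other cell had more than 5. The I-A alpha chain H2-Aa had 228 UMIs in 66 cells, with 98 (43.0%) in cell 177, then 15 in cell 93 and 12 in the next. Its partner H2-Ab1 had 230 UMIs in 72 cells, with 84 (36.5%) in cell 177 and at most 8 elsewhere.

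H2-DMa behaved differently from the chains that DM serves, while H2-DMb1 was raised in cell 177 to a smaller degree than the chains. H2-DMa, the DM alpha chain, was the member found in most cells, with 252 UMIs in 127 of 191 cells and never more than 6 in a cell. Cell 177 had 1 UMI of it, 0.917 times the mean level of the other cells. H2-DMb1, the beta chain, had 90 UMIs in 63 cells. Cell 177 had 7 of them, the most of any cell and 19.4 times the mean level of the others, and the next cell had 4. Ciita, the coactivator, had 10 UMIs in 9 cells, of which 2 were in cell 177. That is 57.5 times the mean level of the others, but from 2 UMIs. These counts from the 3′ ends are not scaled to length, so they do not rank the genes by level.

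A single cell rarely holds so much of a gene in these data. Among the 8714 genes with at least 50 UMIs, the richest cell held a median of 3.87% of a gene, and 43 genes (0.493%) had 20% or more of their UMIs in 1 cell. Of the 6 members with that depth, 4 did. It took 1 cell to reach 50% of the Cd74 UMIs, 2 for H2-Eb1, 3 for H2-Aa and 6 for H2-Ab1. For H2-DMb1 it took 18 cells and for H2-DMa 33.

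**Figure D1:**
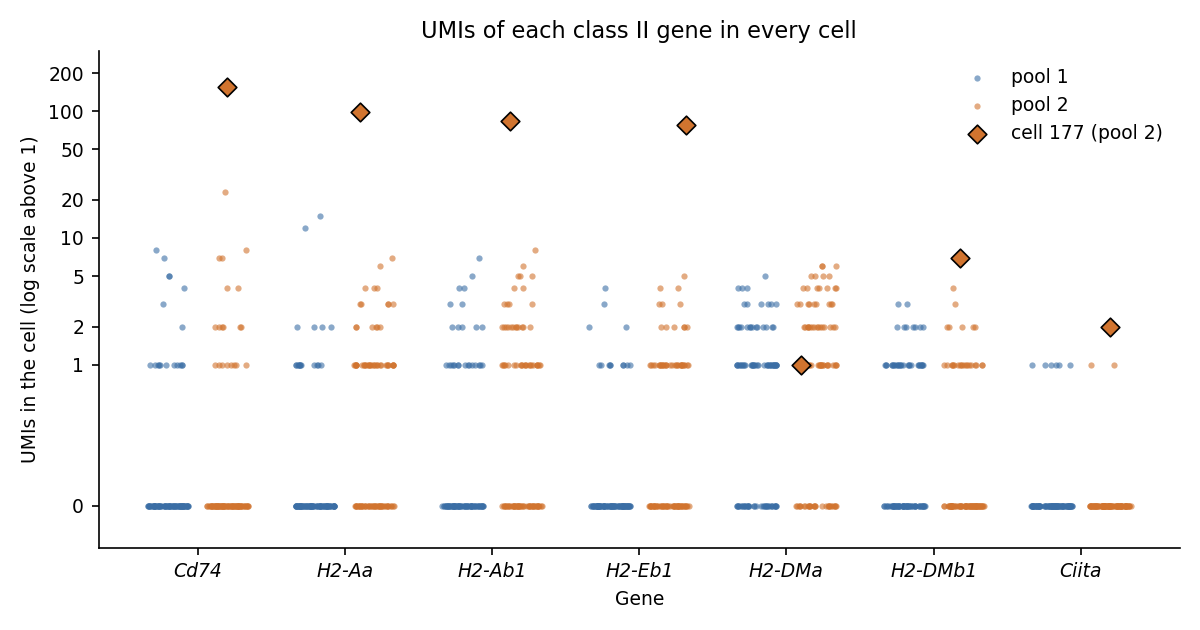
UMIs of each member in each of the 191 cells (vertical axis, log scale above 1), with pool 1 in blue and pool 2 in orange, and cell 177 as a diamond. Cell 177 holds 56.8% of the Cd74 UMIs and stands at 98, 84 and 78 UMIs for H2-Aa, H2-Ab1 and H2-Eb1, far above the rest, and at 1 UMI for H2-DMa.

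**Figure D2:**
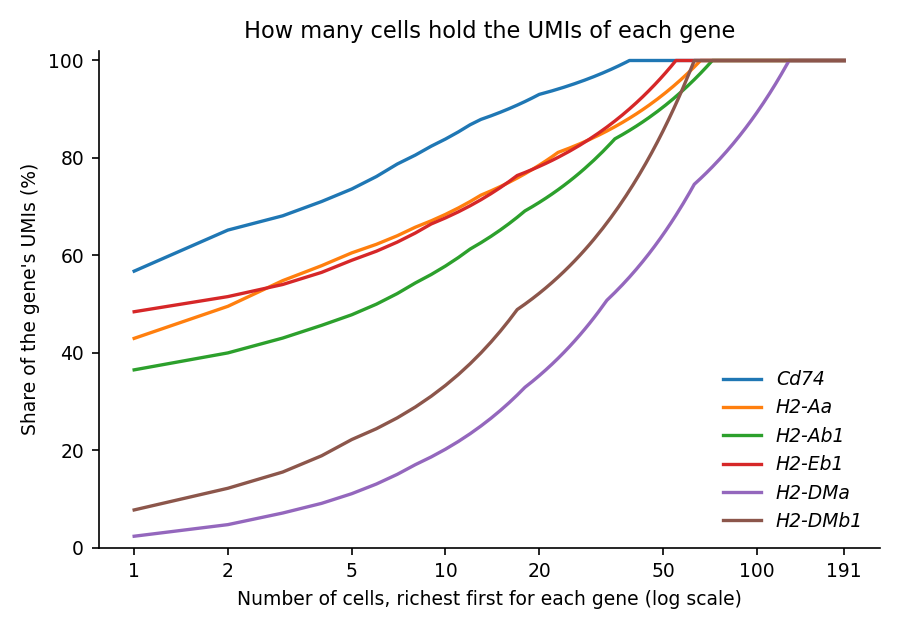
Share of a gene's UMIs (vertical axis, %) held by its richest cells, counted from the richest (horizontal axis, log scale), for the 6 members with at least 50 UMIs. Cd74 starts at 56.8% with 1 cell, and H2-DMa needs 33 cells to reach 50%.

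What cell 177 was by its other genes and its label signals was the next question. It had 16034 gene UMIs and 4079 detected genes, against medians of 17404 and 4894 in its pool. It carried genes of conventional dendritic cells and nearly none of stem cells. Irf8, a factor needed by the dendritic cells that present to killer T cells, had 28 UMIs there against 0.90 at the mean level of all cells. Id2, a partner factor of that lineage, had 26 of its 73 UMIs there. All 3 UMIs of Clec9a, a receptor for dead cells on those dendritic cells, were in cell 177, as were 4 of the 7 of the chemokine receptor Xcr1 and 3 of the 11 of Zbtb46, a factor of conventional dendritic cells.

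By whole lists, 6 of the 11 conventional dendritic genes in the counts were detected in cell 177, with a sum of 41.2 per 10000 UMIs. In the other cells the highest was 18.9 and the median was 3.82. The sum of 9 monocyte and macrophage genes was also highest there, at 11.2 per 10000 against at most 7.60 elsewhere, led by the chemokine receptor Ccr2 with 11 UMIs. Csf1r, the macrophage growth factor receptor, had none. None of 8 B lineage, 8 neutrophil, 10 erythroid or 7 megakaryocyte genes was detected. Of 10 stem cell genes 1 was, Hlf with 1 UMI, and the list ranked 191 of 191. Itgax, which encodes CD11c, had no UMI, and Batf3 was not analysed here.

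Genes found mainly in cell 177 were picked by a fixed size, at least 10 UMIs and at least 50% of the gene. Beside Cd74 these were Plbd1, with all 12 of its UMIs there, the lysosomal amidase Naaa, with 12 of 21, and Ccr2, with 11 of 19. Class I genes did not stand out in the cell, with 9 UMIs of H2-K1 against 15.1 at the mean level and 32 of B2m against 32.6.

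The antibody signals of cell 177, in arbitrary units, placed it at an edge of the sort. Its CD16/32 signal, the Fc receptors of myeloid cells, was the highest of the 96 cells of its pool, at 2178 against a pool median of 552. CD11b ranked 6 from the top, at 219 against 92.9. CD135 was in the upper tercile, at 1198 (rank 28) against 685, while the RNA of Flt3 stood at 2 UMIs. Sca-1 was in the lower tercile, at 830.1 (rank 72) against 1475, and cKit ranked 88, at 2735 against 6002. Kit and Ly6a, the genes of the proteins used for the sort, had 0 UMIs, against 6.77 and 0.70 at the mean level.

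**Figure D3:**
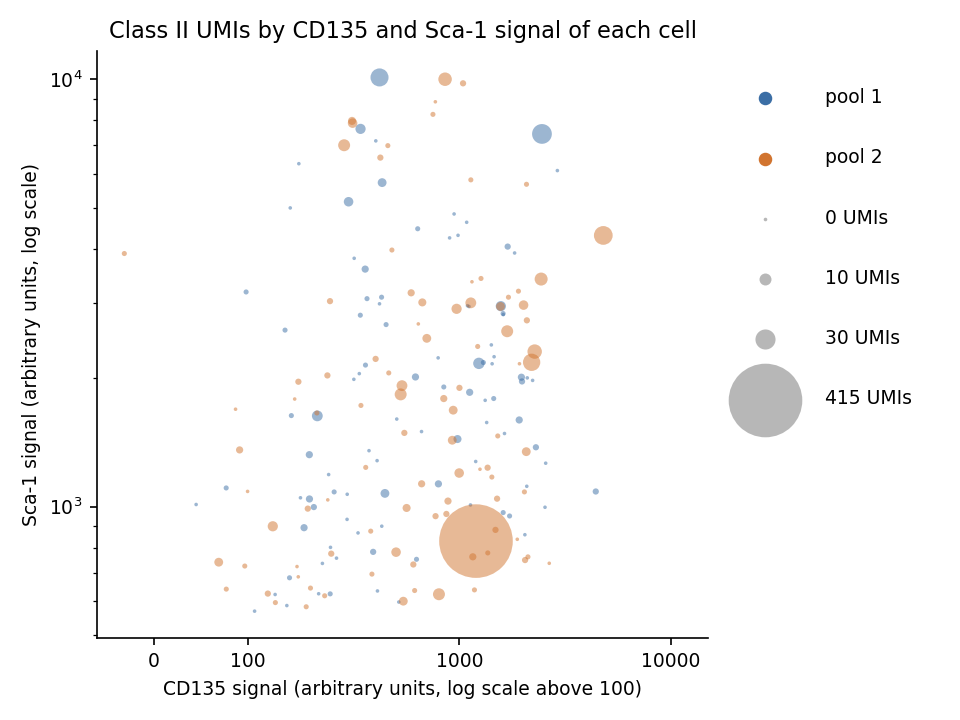
CD135 signal (horizontal) and Sca-1 signal (vertical) of each kept cell, both in arbitrary units on log scales, with the area of a point growing with its summed UMIs of Cd74, H2-Aa, H2-Ab1 and H2-Eb1. Cell 177, with 415 UMIs, lies at upper-tercile CD135 and lower-tercile Sca-1, and the next 3 cells lie in the upper Sca-1 tercile.

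The cells that followed had more stem or lymphoid RNA than cell 177. Cell 93 in pool 1 had 34 member UMIs, with 15 of H2-Aa, 7 of Cd74 and 7 of H2-Ab1. It ranked 5 for CD135, 3 for Sca-1 and 2 for CD11b in its pool, with CD16/32 in the upper and cKit in the lower tercile as in cell 177, and carried 42 UMIs of the stem cell factor Hlf, 18 of Kit and 13 of Dntt, the polymerase of early lymphoid cells. Cell 125 in pool 2 had 29, of which 23 were Cd74, with none of H2-Aa. It had the highest CD135 signal and forward scatter of its pool and 51 UMIs of Dntt. Cell 19 in pool 1 had 25, with 12 of H2-Aa and 8 of Cd74. It had the highest Sca-1 signal of its pool, with 27 UMIs of Hlf and 21 of the stem cell factor Angpt1. Of the 11 conventional dendritic genes, 2 or 3 were detected in each of these 3 cells. Clec9a and Xcr1 were at 0 in all 3, while cell 125 had 7 UMIs of the chemokine receptor Ccr7 and 2 of Irf8, and cell 19 had 1 of Zbtb46.

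Low-level class II in the other 190 cells came next. The members summed to 819 UMIs there, in all but 15 of the cells, at 222 CPM (exact Poisson 95% interval 207 to 238). Of these cells 111 had 1 to 4 member UMIs and 64 had 5 or more. The highest were 34 and 29. Of the 4 genes Cd74, H2-Aa, H2-Ab1 and H2-Eb1, 64 cells had none detected, 62 had 1, 34 had 2, 22 had 3 and 8 had all 4.

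The chain genes tended to be seen in the same cells over both pools, and this was clear in pool 1 alone. H2-Aa was detected in 52.6% of the 38 cells with Cd74 (Clopper-Pearson 35.8 to 69.0) and in 29.6% of the 152 without (22.5 to 37.5). H2-Ab1 was detected in 55.4% of the 65 cells with H2-Aa (42.5 to 67.7) and in 28% of the 125 without (20.3 to 36.7). Within pool 1, H2-Aa was seen in 50% of cells with Cd74 (26 to 74) and 11.5% of those without (5.41 to 20.8), and H2-Ab1 in 61.1% of cells with H2-Aa (35.7 to 82.7) and 19.2% of those without (11.2 to 29.7). Within pool 2 the intervals overlapped, at 55% (31.5 to 76.9) against 48.6% (36.9 to 60.6) for the first pair and 53.2% (38.1 to 67.9) against 42.6% (28.3 to 57.8) for the second. H2-DMa did not follow Cd74 over both pools, at 60.5% of cells with Cd74 (43.4 to 76) and 67.8% of those without (59.7 to 75.1). Median depth was 16850 gene UMIs with Cd74 and 17981 without, and 18356 with H2-Ab1 and 17390 without. Cells with 3 of the 4 genes had the highest median depth, 19747.

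Library pool moved with these low levels. Leaving out cell 177, the 4 genes stood at 179 CPM (160 to 200) in pool 2, which holds that cell, and at 84.2 CPM (71.8 to 98.2) in pool 1. At least 1 of the 4 was seen in 81 of 94 cells of pool 2 and 45 of 96 of pool 1. H2-Aa was detected in 50.0% of pool 2 cells and 18.8% of pool 1 cells, and H2-Eb1 in 43.6% and 13.5%. Cells with exactly 1 UMI made up much of the gap, 31 against 12 for H2-Aa and 29 against 9 for H2-Eb1. Cd74, with the most UMIs of the 4 in cell 177, was detected in 21.3% and 18.8%. Pool 2 was also higher for H2-DMa, at 86.7 against 51.2 CPM, although cell 177 had 1 UMI of it. Of all genes with at least 10 UMIs, 5.62% were higher by a log2 of 1 or more in pool 2 and 6.51% lower, and of 6 members 2 were higher and none lower.

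The mix of the 4 genes differed as well. Cd74 made up 37.3% of their UMIs in cell 177, 23.2% in the rest of pool 2 and 27.6% in pool 1. H2-Ab1 made up 20.2%, 30.3% and 31.3%, and H2-Eb1 18.8%, 20.1% and 12.3%. The cell of pool 1 with the same primer as cell 177 had none of the 4. Among 18 other genes with at least 30% of their UMIs in 1 cell, 13 were seen more often in that cell's own pool, the median difference over the 18 was 3.85 percentage points, and Elane was the single one above 10 points. Whether some of the 1-UMI cells of pool 2 hold misassigned UMIs of cell 177 was not tested. Values within each pool are given below for the summed members and the main ratios.

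Whether class II followed CD135 was asked with and without cell 177. With all 191 cells, the members summed to 748 UMIs in the upper tercile and 193 in the lower, a log2 ratio of CPM of 2.04 (exact conditional binomial 95% interval 1.81 to 2.28). Of 6 members 4 were higher by a log2 of 1 or more, against 5.88% of 11998 genes, and none was lower, against 8.42%. Without cell 177, 323 UMIs in the upper tercile stood against 193 in the lower, a log2 ratio of 0.85 (0.59 to 1.12), and 1 of 6 members was higher, against 5.73% of genes. None was lower, against 8.46%. The median over members was 0.70 and that over all genes -0.06. All further values leave cell 177 out unless stated.

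Cd74 had the clearest difference by CD135, with 14 UMIs in the lower tercile, 29 in the middle and 75 in the upper. The upper tercile was higher than the lower by a log2 of 2.53 (1.69 to 3.47), with 1.79 in pool 1 and 3.0 in pool 2. Of the 75 UMIs, 23 were in cell 125, and leaving out the 3 next-richest cells as well gave 1.87 (0.98 to 2.85). Per cell, Cd74 had a median of 0 in every tercile and maxima of 5, 8 and 23, so the terciles overlapped at the cells without a UMI. Detection was 11.1% of cells in the lower tercile, 18.8% in the middle and 30.2% in the upper.

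Of the I-A and I-E chains, H2-Ab1 was higher in the middle CD135 tercile than in the upper, with an upper-to-middle log2 ratio of -0.58 (-1.14 to -0.02). For H2-Aa and H2-Eb1 that interval included 0. H2-Ab1 stood at 22.7 CPM in the lower, 57.9 in the middle and 38.8 in the upper tercile, H2-Eb1 at 12.5, 31 and 24.5, and H2-Aa at 27.4, 42.4 and 36.3. Upper against lower, the log2 ratio was 0.77 (0.07 to 1.5) for H2-Ab1, with 0.23 (-0.88 to 1.35) in pool 1 and 1.17 (0.22 to 2.2) in pool 2. For H2-Eb1 it was 0.97 (0.04 to 1.95), with 0.81 (-0.98 to 2.77) in pool 1 and 1.01 (-0.11 to 2.21) in pool 2, so neither pool alone excluded 0. For H2-Aa it was 0.41 (-0.27 to 1.09), an interval that includes 0, with 1.94 in pool 1 and -0.32 in pool 2. In pool 1, 15 of its 21 UMIs in the upper tercile were in cell 93.

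H2-DMa stood at 54.8, 66.1 and 84.4 CPM over the CD135 terciles, a log2 ratio of 0.62 (0.17 to 1.09). Most of that was in pool 2, at 0.92 (0.32 to 1.53), against 0.14 (-0.62 to 0.89) in pool 1. H2-DMb1 did not follow, at -0.16 (-1.01 to 0.67). Ciita had 0 UMIs in the lower tercile (at most 2.89 CPM by its interval), 2 in the middle and 6 in the upper, each in a different cell.

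The 3 chain genes and Cd74 were then summed. They were at 73.6 CPM (59.5 to 90.1) in the lower CD135 tercile, 154.9 (134 to 179) in the middle and 163 (141 to 188) in the upper. At least 1 of them was seen in 61.9%, 71.9% and 65.1% of cells, and after thinning every cell to 12147 UMIs in 44.9%, 63.6% and 55.3%. Cells with 5 or more of their UMIs numbered 6, 16 and 11. The middle and upper terciles did not differ beyond their intervals.

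Sca-1 gave the opposite sign with and without cell 177. With all 191 cells, the upper tercile had 358 member UMIs and the lower 606, a log2 ratio of -0.58 (-0.77 to -0.39). None of 6 members was higher by a log2 of 1, against 7.19% of 11995 genes, and 2 were lower, against 4.48%. Without cell 177, which lies in the lower tercile, that tercile had 181 UMIs and the ratio was 1.15 (0.89 to 1.41). It was 1.22 (0.80 to 1.66) in pool 1, which never held cell 177, and 1.12 (0.78 to 1.46) in pool 2. Of 6 members 3 were higher, against 7.33% of genes, and none was lower, against 4.49%. The median over members was 0.87 and that over all genes 0.04.

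**Figure D4:**
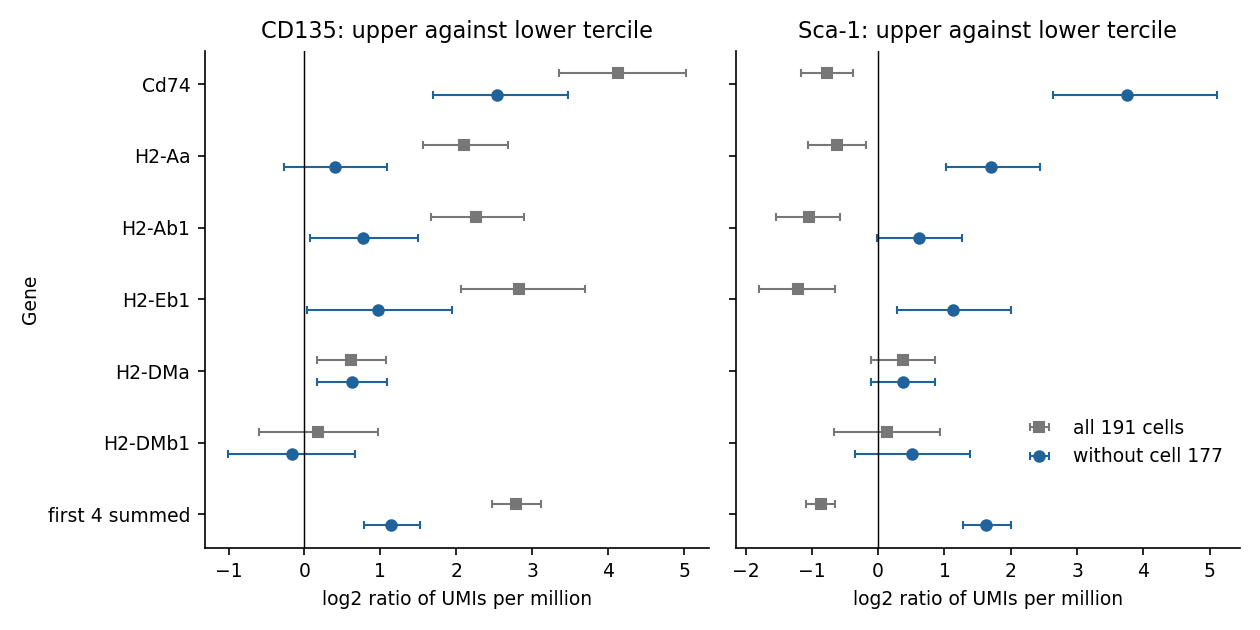
Log2 ratio of CPM, upper against lower tercile, for CD135 (left) and Sca-1 (right), with exact 95% intervals of counting error. Squares are all 191 cells and circles leave out cell 177. By Sca-1 the 4 genes summed move from -0.87 to 1.63 when that cell is left out, while H2-DMa stays at 0.37.

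Cd74 again had the largest ratio of the members. It had 7 UMIs in the lower Sca-1 tercile, 27 in the middle and 84 in the upper, a log2 ratio of 3.75 (2.64 to 5.11), with 3.24 in pool 1 and 4.07 in pool 2. Detection was 9.68%, 18.8% and 31.2% of cells, and the maxima were 2, 8 and 23 UMIs. H2-Aa stood at 18.6, 28.9 and 60.8 CPM, a ratio of 1.71 (1.02 to 2.44), with 4.21 (2.25 to 7.31) in pool 1 and 0.92 (0.12 to 1.76) in pool 2. Its share of cells with a UMI was 30.6%, 37.5% and 34.4% over both pools. In pool 1 it was seen in 2, 9 and 7 of 32 cells over the terciles, and in pool 2 in 17 of 30, 15 of 32 and 15 of 32. Cells 93 and 19 held 27 of its 70 UMIs in the upper tercile of both pools. Without them and cell 125 the ratio over both pools was 1.10 (0.35 to 1.89). Cells 93 and 19 are both in pool 1, where H2-Aa had 34 UMIs in the upper tercile and 2 in the lower. The pool 1 ratio of 4.21 therefore rests mostly on these cells.

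H2-Eb1, the I-E beta chain, was at 14.7, 21.7 and 32.1 CPM, a log2 ratio of 1.13 (0.29 to 2.01), with 1.34 (-0.79 to 3.93) in pool 1 and 1.12 (0.20 to 2.09) in pool 2. H2-Ab1 was at 29.4, 45 and 45.1 CPM, and its ratio of 0.62 (-0.01 to 1.26) had an interval that just included 0, as did those of pool 1, at 0.71 (-0.27 to 1.72), and pool 2, at 0.56 (-0.30 to 1.44). Both DM genes had intervals that included 0, at 0.37 (-0.11 to 0.86) for H2-DMa and 0.51 (-0.35 to 1.39) for H2-DMb1. Ciita had 1 UMI in the lower tercile, 1 in the middle and 6 in the upper.

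Summed over the 4 genes, the Sca-1 terciles stood at 68.2 (54.7 to 84), 117 (99 to 138) and 211 (185 to 239) CPM. These intervals do not overlap, but cells 93, 125 and 19 all lie in the upper tercile. The ratio of upper to lower was 1.63 (1.27 to 2.00), with 2.04 in pool 1 and 1.46 in pool 2. At least 1 of the 4 genes was seen in 13, 16 and 16 of 32 cells in pool 1, and in 26 of 30, 26 of 32 and 29 of 32 in pool 2. Cells with 5 or more UMIs of them numbered 6, 9 and 18. Median depth was 18979 UMIs in the lower tercile and 16697 in the upper, the reverse of the class II order. Without cells 93, 125 and 19, middle and upper Sca-1 overlapped within each CD135 tercile. They were at 71.6 (45.9 to 106) and 150 CPM (103 to 212) in the lower CD135 tercile, and at 134.4 and 138.9 in the middle. In the upper CD135 tercile they were at 133.6 (101 to 173) and 169.2 (131 to 215). Levels of whole Sca-1 terciles without these cells are not given.

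**Figure D5:**
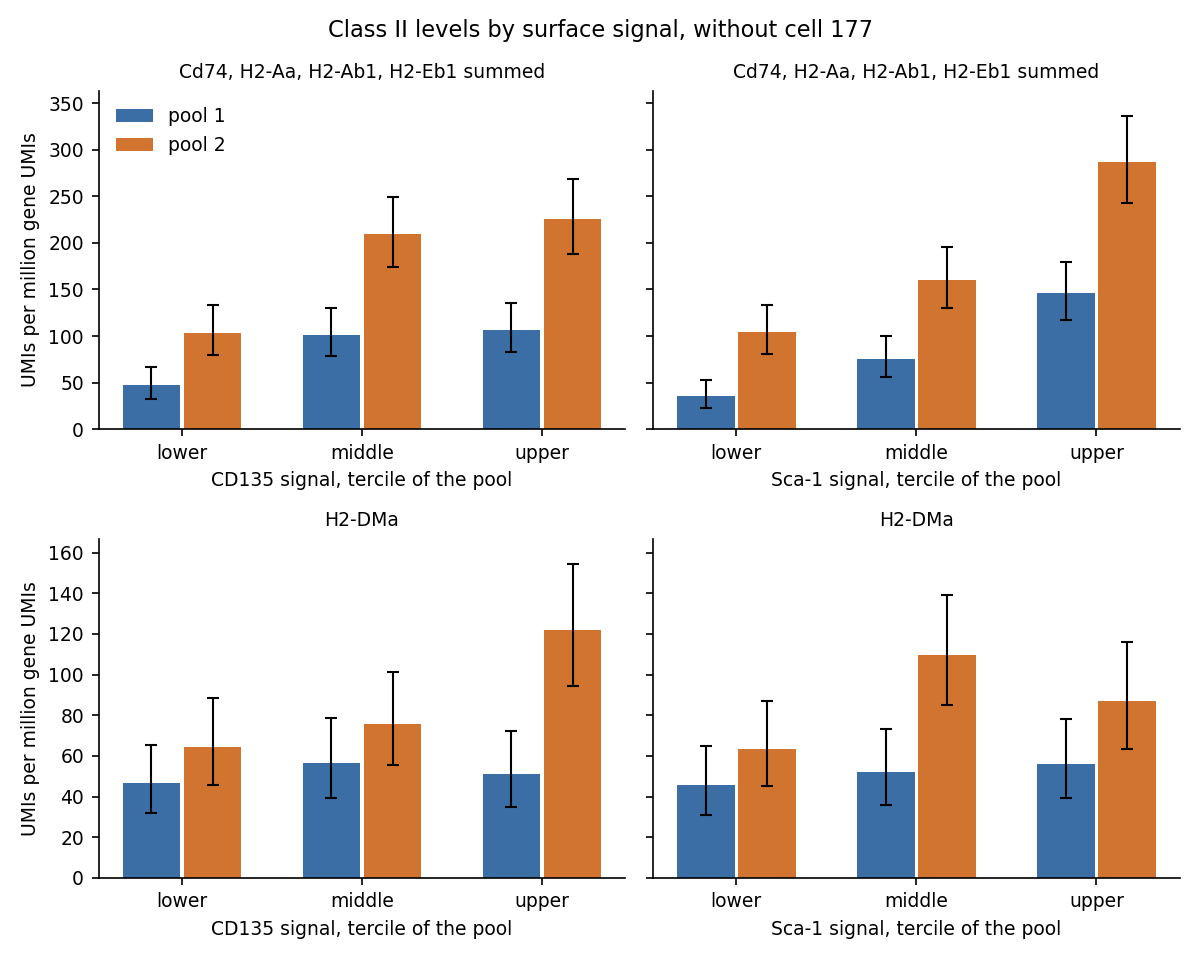
CPM (vertical axis, from 0) of Cd74, H2-Aa, H2-Ab1 and H2-Eb1 summed (top) and of H2-DMa (bottom) in the lower, middle and upper tercile by CD135 (left) and Sca-1 (right), without cell 177. Bars are pool 1 (blue) and pool 2 (orange) with exact Poisson 95% intervals. The summed genes are higher at each step of Sca-1 in both pools, and pool 2 stands above pool 1 in every tercile. Cells 93, 125 and 19 are in the upper Sca-1 tercile.

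CD135 and Sca-1 terciles were crossed to see the 2 signals together. The 4 genes were highest in the 23 cells upper for both, at 268 CPM (223 to 321), and lowest in the 15 cells upper for CD135 and lower for Sca-1, at 46.7 (25.5 to 78.3). Cells 93 and 125 lie in the first of these classes. Leaving out the cells above 2% of the members' UMIs put it at 169.2 CPM (131 to 215), against 138.9 (107 to 177) in the cells middle for CD135 and upper for Sca-1, which overlap. Cells lower for both, 34 in number, were at 52.1 (36.9 to 71.5). Within the upper CD135 tercile the level went from 46.7 to 134 to 268 CPM with rising Sca-1, and within the lower CD135 tercile from 52.1 to 71.6 to 150. The first order was the same in each pool, at 24.1, 88.2 and 206 CPM in pool 1 and 74.5, 209.8 and 313 in pool 2. The second was not, at 29.6, 83.4 and 64.5 in pool 1 and 80.3, 62.7 and 313 in pool 2, from 5 to 19 cells each. Within the lower Sca-1 tercile it did not follow CD135, at 52.1, 138 and 46.7 CPM. Of the 19 cells with 10 or more member UMIs, 11 were in the upper Sca-1 tercile and 2 in the lower.

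Genes of other cell types moved with the same signals, and their part in the class II values was not tested. By Sca-1, 6 of 10 stem cell genes were higher by a log2 of 1 or more, against 7.33% of all genes, and none lower, against 4.49% (median 1.55). Among them were Procr at 3.65, Fgd5 at 2.39, Mecom at 2.14 and Hlf at 1.90. Ly6a, which encodes Sca-1 itself, is also 1 of the 6, at 3.20. By CD135, 7 of 10 lymphoid priming genes were higher, against 5.73% of all genes, and none lower, against 8.46% (median 2.32). Among the 7 were Ighm at 4.35 and Dntt at 3.70. The highest cell of the conventional dendritic list had 15.9, 16.6 and 18.9 per 10000 UMIs over the CD135 terciles, and the medians were 0.96, 3.92 and 5.93, with Flt3 on the list. Of its 4 genes with enough counts, 3 were higher by CD135, against 5.73% of all genes, and 1 lower, against 8.46%. Ccr7 was at 4.01 (1.31 to 9.41), Irf8 at 2.85 (1.96 to 3.86), Flt3 at 2.47 and Id2 at -2.52. Clec9a was at 0 in all 190 cells. The plasmacytoid dendritic list had medians of 4.79, 5.57 and 9.51 per 10000, from 0.66 to 10.3 in the lower tercile and from 4.03 to 34.8 in the upper. The B lineage list had 30, 211 and 52 UMIs, with a highest cell of 1.27, 48.9 and 2.40 per 10000 and with Pax5 at 0 in the upper tercile. Over the Sca-1 terciles, medians of the conventional dendritic list were 2.38, 3.89 and 4.11 (highest cells 16.6, 18.9 and 12.7), those of the plasmacytoid list 5.64, 7.01 and 7.18, and Irf8 was lower in the upper tercile (log2 -2.02). The B lineage list had 207, 42 and 44 UMIs, and in the upper Sca-1 tercile Cd79a, Pax5 and Igll1 were at 0.

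The machinery around the members was read from lists of their known partners. Of 7 enhanceosome genes (RFX, CREB and NF-Y subunits), 1 was higher by a log2 of 1 or more by CD135 (against 5.73% of all genes, and 7.33% by Sca-1, for this and the lists that follow), Rfxank at 1.33 (-0.14 to 3.0), and none by Sca-1. Their median was -0.03 by CD135 and 0.23 by Sca-1. Of 3 other class II region and loading genes with enough counts, 2 were higher by CD135. Ctss, the cathepsin that trims the invariant chain, was higher by 2.67 (1.69 to 3.80) and also by Sca-1, at 1.04 (0.39 to 1.72). H2-Ob, the DO beta chain that restrains DM, was higher by CD135, at 1.42 (0.94 to 1.92), and lower by Sca-1, at -0.51 (-1.0 to -0.03). It had 251 UMIs in 102 cells, with 1 in cell 177.

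Interferon-gamma, which induces CIITA, was followed through 6 genes of its pathway, none of which passed a log2 of 1 in either direction by either signal. Irf1, a target of that pathway, stood at 0.65 (0.14 to 1.17) by CD135 and 0.96 (0.45 to 1.48) by Sca-1. Of 9 MHC class I genes 1 was higher by each signal, Nlrc5, the class I coactivator related to CIITA, at 1.22 (0.19 to 2.34) and 1.51 (0.54 to 2.56). H2-K1, a class I heavy chain, was at -0.03 by CD135 and 0.53 (0.41 to 0.66) by Sca-1. With 9 genes, 1 is near the share over all genes. None of 5 genes for the ligand of CD74 and its partners passed a log2 of 1. Mif, that ligand, was at -0.55 (-0.82 to -0.29) by Sca-1 and -0.01 by CD135.

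The remaining signals gave smaller differences once cell 177 was left out. By cKit the summed members were lower in the upper tercile, by a log2 of -0.71 (-0.95 to -0.47), with -0.79 in pool 1 and -0.68 in pool 2. Cd74 had 14 UMIs there against 77 in the lower tercile. Of these 77, 23 were in cell 125, 8 in cell 19 and 7 in cell 93. No ratio by cKit without these cells is given. By CD16/32 the ratio was 1.24 with all cells and 0.04 (-0.20 to 0.28) without cell 177, and by CD11b it was 1.31 and 0.03 (-0.22 to 0.28). By CD150 it was 0.12 (-0.12 to 0.37) and by CD127, the IL-7 receptor, 0.13 (-0.12 to 0.38). Cd74 alone was higher with CD127, at 2.21 (1.27 to 3.29), with 61 against 11 UMIs. Of these 61, 23 were in cell 125, 8 in cell 19 and 7 in cell 93, so the difference rests largely on few cells. No ratio by CD127 without these cells is given.

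Few genes followed the members from cell to cell. Among 8674 genes with at least 30 UMIs in at least 10 cells, the highest Pearson correlations with the summed members, on log2(1 + UMIs per 10000), were 0.35 for Ctss, 0.35 for Mpeg1, 0.35 for Nagpa, 0.31 for Wdfy4 and 0.31 for Cdk14 over 191 cells. Without cell 177 they were 0.31 for Ctss, 0.28 for Mettl27, 0.27 for Malat1, 0.27 for B2m and 0.27 for Pygb. These are weak values in sparse counts from shared libraries. By Spearman correlation over 191 cells Ctss was at 0.28 and Mpeg1 at 0.08, and 30 of the 90 UMIs of Mpeg1 were in cell 177. The summed members per 10000 UMIs had a Spearman correlation of -0.24 with total UMIs over the 190 cells. Total UMIs are also the divisor of that level, so this value cannot be set against those of the signals. Over the same cells their Spearman correlation was 0.21 with the Sca-1 signal and 0.15 with the CD135 signal. These cells span both pools, whose median signals differed (Sca-1 1702 in pool 1 and 1475 in pool 2, CD135 478 and 685). By this measure both signals were followed only weakly from cell to cell.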

How the data were processed

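The authors deposited UMI counts, 1 row per gene and 1 column per cell, which were not normalized. Per the labels' protocols, an adapted CEL-seq2 protocol with 96 indexed poly(T) primers, an 8-base index, a 6-base UMI and ERCC spike-ins was used. Per the submitters' processing notes the build was GRCh38, while the identifiers are of mouse genes. Of aligner and counting rule the sources used here say nothing. Symbols and GRCm38 coordinates came from GENCODE M21.

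A cell had to reach 20% of the median depth of its pool. UMIs were summed over cells and divided by gene UMIs (CPM). Ratios have exact conditional binomial, levels exact Poisson and shares of cells Clopper-Pearson 95% intervals. A gene was called from a log2 of 1 with at least 10 UMIs in both terciles together, and a side at 0 was set at 3 UMIs. Thinning to 12147 UMIs left out 19 cells. Doublets were not called, since cells were sorted singly. No test across samples was possible. Named were all members, up to 4 genes of a list with most UMIs, the genes most alike and those held by cell 177. Lineage genes of single cells, Elane, Ctss, H2-Ob and list members with smaller counts were named after their values were seen. The members and lists were chosen with earlier results of these data known. Python 3.11.15, pandas 2.3.3 and scipy 1.17.1 were used, and the ratio was tested on simulated data.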

Additional observations from a re-analysis of the deposited data

How the results depend on the processing

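Results were recomputed under other settings, some chosen after seeing the data (the 4-gene sum as a level, CD127-high cells left out, single cells left out). With all cells, the CD135 ratio of 2.04 became 1.42 with 2 classes of 48 cells per pool in place of 3, 0.73 in pool 1, 2.50 in pool 2, 1.62 without Cd74 and 2.78 for Cd74, H2-Aa, H2-Ab1 and H2-Eb1 alone. Without cell 177, its 0.85 became 0.50 with 2 classes, 0.58 without Cd74 and 1.15 for the 4 genes. With all cells, the Sca-1 ratio of -0.58 became -0.80 with cells weighted equally, -0.86 per spike-in UMI, -1.11 in pool 2 and -0.87 for the 4 genes. It turned to 1.22 in pool 1, which does not hold cell 177. There, Cd74 turned to 3.24, H2-Aa to 4.21, H2-Ab1 to 0.71 and H2-Eb1 to 1.34. Without cell 177, its 1.15 became 0.86 per spike-in UMI, 0.83 with 2 classes, 0.82 without Cd74, 1.63 for the 4 genes and 0.84 with every cell above 2% of the UMIs left out. The share in cell 177 was 46.5% for the 4 genes and 45.7% within pool 2. Leaving out 1 more of the next 9 cells gave 0.72 to 0.85 by CD135 and 1.04 to 1.15 by Sca-1. Another 48 values of these results moved by less than the counting interval, among them a repeat of the main setting (only the richest cell left out, which is cell 177). For single members and the genes most alike 226 did so, the same repeat among them, 19 moved by more and 4 turned, as given. The genes most alike are among the 19, since Spearman correlation put mostly other genes first. The sign of the Sca-1 ratio of all cells rests on 1 cell. No paired analysis was possible because each sample is 1 cell and the labels name no animal. Depth limits Ciita, H2-DMb1 and any single cell: 0 UMIs in 190 cells allows a share of up to 1.58% of cells with a UMI.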

Other observations

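Cell 125, the second richest in Cd74, carried several genes of activated lymphoid or myeloid cells. Of the 22 UMIs of Tnf, a cytokine, 13 were in this cell, as were 47 of the 141 of Cd69, an early activation marker, and 24 of the 61 of Tnfaip3, a brake on NF-kB signalling. It held 1 UMI of H2-Eb1, 2 of H2-Ab1 and 3 of H2-DMa beside its 23 of Cd74. Its CD127 signal, 5899, ranked 5 of the 96 cells of pool 2. Another cell, with a CD127 signal of 6766 and the lowest cKit signal of pool 2, had 7 UMIs of Cd74, 2 of H2-Aa, 3 of H2-Ab1 and 3 of H2-Eb1. These cells were picked after their values were seen.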
